A study of Mus musculus with 46 samples.

Results

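The genes described here encode the contractile apparatus of smooth muscle: Acta2, Actg2, Myl9, Myh11, Tpm1, Tpm2, Tagln, Cnn1, Cnn2 and Lmod1. They were chosen by symbol, and all 10 were found among the 37108 genes of the gene-level table and among the 35976 genes obtained by summing the 106520 rows of a transcript-level table by symbol. The question was how this set behaved while mouse fibroblasts were reprogrammed towards pluripotency, and whether its course differed between native Nanog and an engineered form of it.

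Poly(A) RNA of 46 samples was sequenced, and expression was given as FPKM (fragments scaled to transcript length and to the number of mapped fragments). The starting cells were mouse embryonic fibroblasts (MEF) from OG2 embryos at E13.5, which carry a GFP reporter driven by Oct4 regulatory sequence. They were infected with retroviruses for Oct4 together with either native Nanog (samples labelled Nanog+Oct4, called NanogWT here) or Nanog joined to the N-terminal 70 residues of the BAF subunit SS18 (labelled NanogN70+Oct4, called NanogBiD here). Day 0 (D0) was the end of 2 infections of 24 h, so Oct4 and a form of Nanog were already delivered in every D0 library. The cells then grew in the reprogramming medium iCD3 and, after about D7, in N2B27 with 2i and LIF. Cells were taken on 8 days from D0 to D12 (D1, D3, D5, D7, D8 and D10 in between), with 2 libraries per combination and day except for NanogBiD at D8, which had 1. There were also 2 libraries of MEF, 1 of mouse embryonic stem cells (mES), and 12 of established induced pluripotent stem cells (iPSC), 6 for each combination, in groups labelled iPSC1 and iPSC2 and grown without feeder cells. The NanogWT iPSC1 samples labelled 1 and 1-2 share a number, and the labels do not say whether they are independent. The libraries are of whole cultures, in which cells that reprogram and cells that do not are mixed, and nothing in the labels states that 2 libraries of a group came from separate cultures, so p-values measure the spread between these libraries, which may be technical.

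In smooth muscle cells, actin filaments built from Acta2 and Actg2 slide along myosin made of Myh11 heavy chains and Myl9 light chains, while tropomyosins, calponins and transgelin line the filaments. The genes are classical targets of serum response factor (Srf), which binds CArG boxes in their promoters together with the coactivators myocardin (Myocd) and the myocardin-related factors. Many of them, Acta2 and Tagln foremost, are also expressed by cultured fibroblasts under tension or TGF-beta signalling, the myofibroblast state, and the loss of the fibroblast programme is an early step of reprogramming.

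The label of the set was checked against MEF. All 10 genes were detected there, but not at like levels. Acta2 stood at 770 and 1153 FPKM and Tagln at 707 and 1118, whereas Myh11, the heavy chain that marks mature smooth muscle, stood at 3.94 and 6.95 FPKM. The mean levels in MEF ran in the order Acta2, Tagln, Cnn2, Tpm1, Myl9, Actg2, Tpm2, Cnn1, Lmod1 and Myh11. The 2 libraries overlapped for Acta2 with Tagln, for Cnn2 with Tpm1, for Actg2 with Tpm2, and for Tpm2 with Cnn1, so those neighbours did not differ beyond their spread. Markers of skeletal muscle summed to 17.5 and 81.4 FPKM over 7 genes and those of cardiac muscle to 2.59 and 6.84 over 6 genes, against 6371 and 6708 over 8 fibroblast markers. Pericyte markers summed to 28.2 and 41.5 FPKM over 5 genes and endothelial markers to 1.13 and 1.48 over 5 genes. The fibroblast markers included Col1a1, a collagen chain, at 3344 to 3700 FPKM. The 8 markers of smooth muscle maturity, which include the members Myh11, Cnn1 and Lmod1, summed to 98.7 and 214 FPKM. That was above each of these lists but the fibroblast one. Of the 8, 5 had a mean of at least 1 FPKM, with Cnn1 at 77.1, Des at 27.5, Smtn at 24.5 and Lmod1 at 19.4. The genes were therefore read in cultures in which fibroblast markers stood highest, with little Myh11 but with other smooth muscle markers present. The set is named for its function and not for the cell type sampled.

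The promoters were read for CArG boxes because the members moved together over time, as described below. RefSeq promoter windows on GRCm38.p6 (250 bases before to 50 after the start site) were held for 7 of the 10 genes. Tagln, Actg2 and Myh11 had no entry. The CArG box was searched in its strict form, with 6 inner A or T bases, and in a form allowing 1 other inner base. The strict form, which reads the same on both strands, was found in 2 of 7 member promoters (Myl9 and Cnn2) and in 1.63% of all 32851 promoters. The looser form, which contains the strict form, was found in 3 of 7 (also Acta2) and in 9.98% of all promoters. CATTCC, the letters that TEAD factors bind, was searched on both strands and found in 3 of 7 (Acta2, Tpm1 and Lmod1) and in 14.7% of all promoters. Tpm2 and Cnn1 held none of these motifs in their windows. A match shows the letters and not a bound site. The stretches that carry the matches are printed 5′ to 3′ along the gene's strand, with the CArG box or the CATTCC match (as GGAATG) in capitals. The Acta2 stretches lie at chr19:34255438-34255467, chr19:34255388-34255417 and chr19:34255502-34255531 on the minus strand, the Tpm1 stretch at chr9:67049252-67049281 on the minus strand, and the Myl9, Cnn2 and Lmod1 stretches at chr2:156775214-156775419, chr10:79988350-79988583 and chr1:135324671-135324700 on the plus strand. Those of Acta2 and Tpm1 fall inside annotated exons of these genes, and the gene positions given below reach past the start sites of the windows.
Acta2, first CArG box: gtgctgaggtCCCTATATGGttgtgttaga
Acta2, second CArG box: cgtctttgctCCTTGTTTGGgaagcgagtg
Acta2, CATTCC match: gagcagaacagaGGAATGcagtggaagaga
Tpm1, CATTCC match: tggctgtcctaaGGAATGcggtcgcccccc
Lmod1, CATTCC match: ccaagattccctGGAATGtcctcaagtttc
Myl9, upstream stretch with CArG boxes: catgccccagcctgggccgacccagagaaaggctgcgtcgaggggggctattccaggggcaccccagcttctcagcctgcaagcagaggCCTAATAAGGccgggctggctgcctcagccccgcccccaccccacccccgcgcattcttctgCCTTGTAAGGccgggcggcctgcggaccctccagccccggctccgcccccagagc
Cnn2, upstream stretch with a CArG box: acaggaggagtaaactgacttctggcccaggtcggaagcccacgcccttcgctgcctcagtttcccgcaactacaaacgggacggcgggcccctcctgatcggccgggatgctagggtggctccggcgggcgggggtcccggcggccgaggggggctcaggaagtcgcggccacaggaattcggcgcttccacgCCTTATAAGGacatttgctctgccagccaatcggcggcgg

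The CArG boxes of Acta2 end 75 and 25 bases before the start site of its window. Those of Myl9 span bases -161 to -152 and -99 to -90, and that of Cnn2 spans -56 to -47. Acta2, Myl9 and Cnn2 were among the members that differed most between the combinations at D12, but so were Actg2 and Tagln, for which no promoter was held.

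Depth was compared through the low values, which are fixed by single fragments. Taking as the unit the median over libraries of similar depth, 25 of the 31 time-course libraries stood at 0.83 to 1.13 and the 6 NanogWT libraries of D8, D10 and D12 at 1.89 to 3.25. From D8 on, therefore, depth and combination cannot be told apart. Differences were tested with limma on log2(FPKM + 1) over 16842 genes with at least 1 FPKM in 2 or more time-course libraries, and a call required an adjusted p (Benjamini-Hochberg over those genes) under 0.05 together with an absolute log2 difference of 1 or more. The added 1 makes changes of low genes smaller than their ratio. All 10 members passed the filter. Of these, 7 reached 1 FPKM in all 31 libraries, whereas Myh11 did so in 7 libraries (D0 and D8), Lmod1 in 12 and Cnn1 in 15, so these 3 entered the test through the groups in which they were high.

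The set first fell together. Every member was called lower than at D0 at D1, D3, D5, D7, D10 and D12 with both combinations, which included each of the 7 genes that were above 1 FPKM throughout. The count of 10 fell to 8 at D1 with NanogBiD without D1 replicate 1 and to 9 without D0 replicate 1. With NanogWT it fell to 9 at D10 without D0 replicate 1, and to 9 at D1 and at D10 when the compared groups were fitted alone. Among all genes tested, 3.03% were called lower at D1 with NanogWT and 3.79% with NanogBiD, followed on D3 by 5.11% and 6.06%, on D5 by 5.34% and 6.23%, on D7 by 5.69% and 6.15%, on D10 by 4.19% and 9.84%, and on D12 by 3.95% and 10.2%. The median log2 difference of the 10 genes from D0 was -2.40 at D1, -4.48 at D3 and -4.01 at D7 with NanogWT. With NanogBiD it was -2.23, -4.39 and -4.77 at the same days. The median over all genes was between 0.09 and 0.34 in the 12 contrasts. The contrasts of a combination share its D0 libraries. In bulk libraries, fewer cells of a type and less RNA per cell cannot be told apart.

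**Figure D1:**
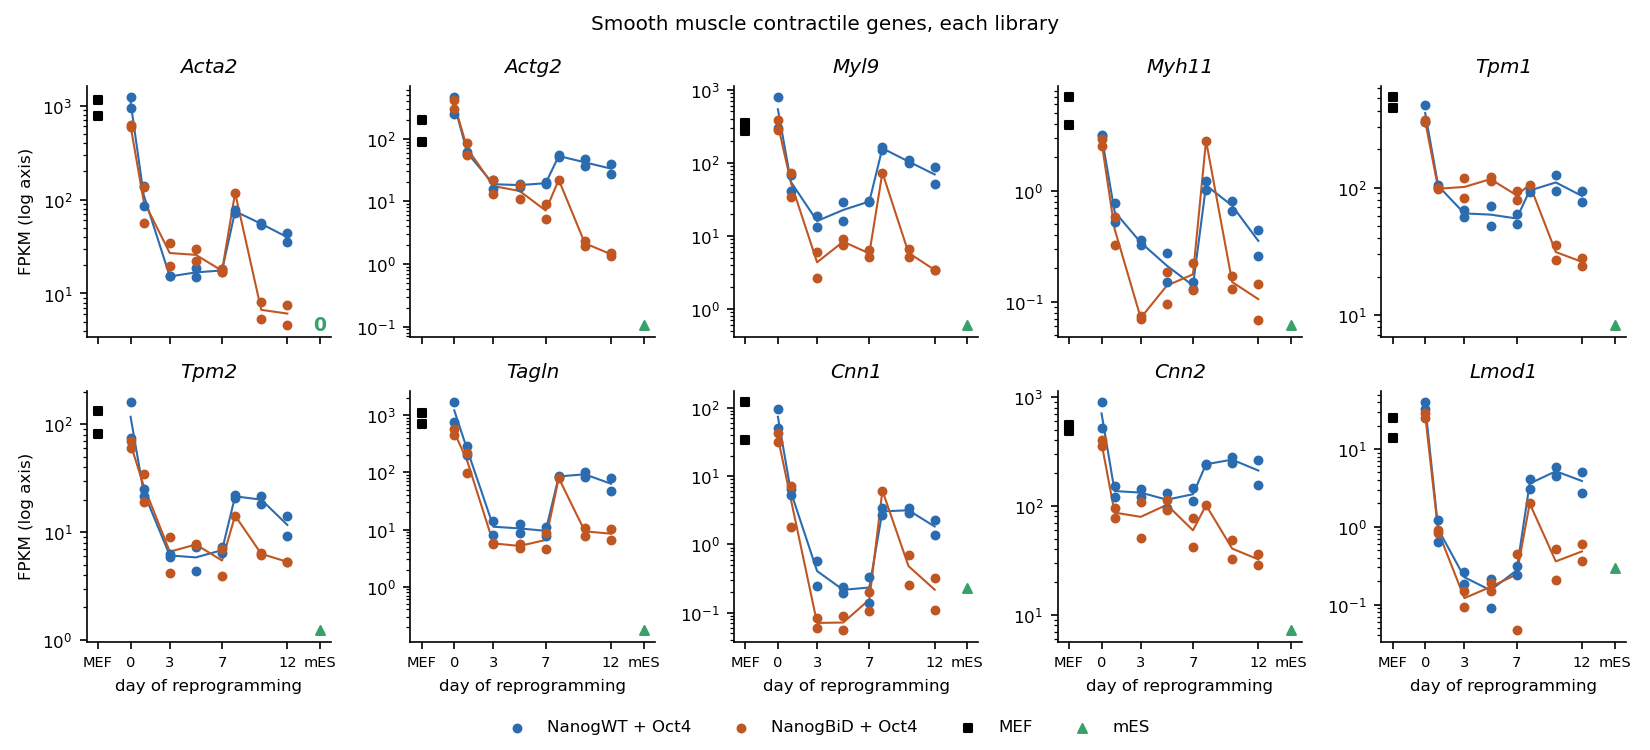
FPKM (log axis) of the 10 genes against day of reprogramming, a point per library and a line through the mean of each day, with MEF on the left and mES on the right of each panel (Acta2 was listed at 0 in mES). All genes fell from D0 to D3 with both combinations and stood higher at D8 than at D7, after which the NanogBiD libraries fell below the NanogWT libraries.

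Gene positions below are on GRCm38.p6. Of the actins, Acta2, the smooth muscle alpha-actin (chr19:34240336-34255585, minus strand), was at 1224 and 951 FPKM at D0 with NanogWT and at 624 and 587 with NanogBiD. At D1 it stood at 86.4 and 138 against 56.9 and 136, and at D3 at 15.2 in both NanogWT libraries against 34.1 and 19.8. All libraries from D3 to D7 of both combinations lay between 15.1 and 34.1 FPKM, and no D0 library was below 587. The log2 difference of D7 from D0 was -5.86 with NanogWT (SE 0.32, limma, adjusted p = 3.21e-11) and -5.04 with NanogBiD (SE 0.32, adjusted p = 2.73e-10).

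Actg2, the gamma-actin typical of gut and other visceral smooth muscle (chr6:83512909-83536251, minus strand), took a different first step. It was at 87.9 and 200 FPKM in MEF and at 456 and 248 at D0 with NanogWT, or 415 and 295 with NanogBiD, so that all D0 libraries exceeded both MEF libraries. It was the single member called between D0 and MEF, higher by 1.34 on the log2 scale with NanogWT (SE 0.36, limma, adjusted p = 0.0126) and by 1.39 with NanogBiD (SE 0.36, adjusted p = 0.00635), where 3.69% and 5.82% of the 16915 genes tested were called higher. Both calls were lost without MEF replicate 1, at log2 differences of 0.75 with NanogWT and 0.80 with NanogBiD. The NanogWT call was also lost without NanogWT D0 replicate 1, and the NanogBiD call without NanogBiD D0 replicate 1. The ratio of Actg2 to Acta2 FPKM, read within each library, was 0.114 and 0.174 in MEF. With NanogWT it ran from 0.260 to 0.373 at D0 and from 1.05 to 1.42 at D3, so Acta2 fell further than Actg2 over these days. With NanogBiD it was 0.502 to 0.664 at D0 and 0.644 to 0.654 at D3, so its D3 ratio lay within the range of D0. At D12 with NanogBiD the ratio was 0.174 and 0.331, below its D0 range but not below either MEF library, at far lower levels of both genes. In their coding sequences the longest run of identical bases shared by Acta2 and Actg2 was 29, and Acta2 shared a run of 47 with the cytoplasmic actin Actb. How fragments that match several actins were divided is not given in the sources used here. Actg2 also overlaps the long noncoding RNA gene Gm38844 over 4499 bases.

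Of the myosin genes, Myl9, the regulatory light chain (chr2:156775408-156781657, plus strand), was the first member to be called between the combinations, at D3. At D0 it stood at 780 and 293 FPKM with NanogWT and at 377 and 281 with NanogBiD, and these ranges overlapped. The D3 values were 13.2 and 18.5 against 6.00 and 2.60 FPKM, those of D5 15.9 and 29.0 against 8.97 and 7.52, and those of D7 29.9 and 28.7 against 5.05 and 6.33. From D3 on, every NanogBiD library was below every NanogWT library of its day.

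Myh11, the smooth muscle myosin heavy chain (chr16:14194527-14292188, minus strand), was the lowest member in every group from MEF to D1. It went from 3.14 and 3.16 FPKM at D0 to 0.15 and 0.13 at D7 with NanogWT and from 2.55 and 2.96 to 0.225 and 0.128 with NanogBiD. Outside D0 and D8 no time-course library reached 1 FPKM, and differences between the combinations at these levels were small on the scale used, at most 0.59 in size.

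The tropomyosins, which wrap around actin filaments, differed from each other. Tpm1 (chr9:67022590-67049672, minus strand) was at 442 and 326 FPKM at D0 with NanogWT, 58.5 and 67.0 at D3 and 62.4 and 52.1 at D7. With NanogBiD it was at 336 and 326 FPKM at D0, then on D3 at 119 and 83.6, on D5 at 121 and 112, and on D7 at 94.2 and 79.9. The NanogBiD libraries were above the NanogWT libraries at D3, D5 and D7, and with 26.3% of its D0 mean at D7 Tpm1 kept more of its level with NanogBiD than any other member. The log2 differences of 0.66, 0.94 and 0.60 (SE 0.20, limma, adjusted p = 0.0425, 0.00285 and 0.0325) passed the p-value threshold but stayed below the fold limit. Tpm2 (chr4:43513726-43523583, minus strand) was lower at all times, fell from 160 and 75.0 to 7.28 and 6.34 FPKM between D0 and D7 with NanogWT and from 70.4 and 60.4 to 7.02 and 3.89 with NanogBiD, and the combinations overlapped at D7.

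Among the proteins that bind actin filaments, Tagln (transgelin) fell furthest to D7 on the log2 scale. It stood at 1685 and 757 FPKM at D0 with NanogWT, at 203 and 293 at D1, and at 8.08 and 14.4 at D3. With NanogBiD it stood at 567 and 449, then 96.7 and 217, then 5.82 and 5.66. The log2 difference of D7 from D0 was -6.77 with NanogWT (SE 0.40, limma, adjusted p = 8.67e-11) and -6.11 with NanogBiD (SE 0.40, adjusted p = 3.71e-10). The Tagln gene (chr9:45929628-45936058, minus strand) overlaps Pcsk7 on the opposite strand over 2480 bases, and since the counting is not stated to use strand, fragments in that overlap cannot be assigned to either gene.

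The calponins moved apart. Cnn1, the calponin of differentiated smooth muscle (chr9:22099221-22109221, plus strand), was at 97.4 and 50.0 FPKM at D0 with NanogWT and at 42.2 and 31.2 with NanogBiD, and at D3 at 0.569 and 0.248 against 0.0590 and 0.0832. Cnn2, which many non-muscle cells express (chr10:79988600-79995400, plus strand), was at 893 and 521 FPKM at D0 against 400 and 353, and at D3 still at 121 and 144 against 108 and 50.6. At D7 Cnn2 kept 18.1% of its D0 mean with NanogWT, the highest share of any member there (log2 difference -2.42, SE 0.35, limma, adjusted p = 1.21e-05), and Cnn1 kept 0.319%, the lowest. The ratio of Cnn2 to Cnn1 within a library reached 1833 at D3 with NanogBiD.

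Lmod1, a leiomodin that nucleates actin filaments in smooth muscle (chr1:135324813-135368065, plus strand), went from 39.9 and 32.3 FPKM at D0 to 0.632 and 1.22 at D1 and 0.185 and 0.264 at D3 with NanogWT. With NanogBiD it went from 25.3 and 29.5 to 0.828 and 0.902 and then to 0.0943 and 0.148. At D1 its mean was 2.57% of D0 with NanogWT and 3.16% with NanogBiD, the lowest share of any member at that day. The NanogBiD libraries were below the NanogWT libraries at D3, and the combinations overlapped at D7.

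The set then stood higher at D8, the first day sampled after the change of medium. With NanogWT, Acta2 went from 16.8 and 18.4 FPKM at D7 to 77.5 and 72.4 at D8, Myl9 from 29.9 and 28.7 to 151 and 163, and Tagln from 11.1 and 7.85 to 84.2 and 86.1. The single NanogBiD library of D8 had Acta2 at 118 FPKM against 18.1 and 16.8 at D7, Myl9 at 72.8 against 5.05 and 6.33, and Tagln at 79.8 against 8.56 and 4.62. For all 10 genes and both combinations, each D8 library was above each D7 library. Myh11 reached 2.84 FPKM in the NanogBiD library, 103% of the mean at D0, and 1.22 and 1.02 with NanogWT.

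For NanogWT the step from D7 to D8 was tested as a contrast added after the values were seen, and 7 of the 10 members were called higher, where 4% of all genes were. The log2 differences were 3.06 for Tagln (SE 0.40, limma, adjusted p = 1.73e-05), 2.38 for Myl9 (SE 0.42, adjusted p = 0.000433), 2.03 for Acta2 (SE 0.32, adjusted p = 0.000145), 1.84 for Lmod1, 1.71 for Cnn1, 1.53 for Tpm2 and 1.40 for Actg2. The median over the members was 1.62, against 0.04 over all genes. Tpm1, Myh11 and Cnn2 were at 0.72, 0.89 and 0.92. Lmod1 and Cnn1, like Myh11, were under 1 FPKM at D7 and entered the test through groups in which they were high, D8 among them. The NanogBiD step rests on 1 library and was not tested.

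The sum of the fibroblast markers rose with the members at this step. The 8 fibroblast markers summed to 778 and 785 FPKM at D7 with NanogWT and to 1617 and 1647 at D8, with 3 called higher and 1 lower. With NanogBiD they summed to 365 and 529 at D7 and 728 at D8. In that D8 library Col1a1 (313 FPKM) and Col1a2 (163 FPKM) were above both D7 libraries. Pdgfra, Dcn and Lum were below both, and Thy1, Fn1 and S100a4 lay between them. The NanogWT libraries of D8 were also the first of the deeper ones. On the depth scale given above the NanogBiD library of D8 was at 1.04, against 1.13 and 1.03 at D7 and 0.94 and 0.93 at D10. The 7 pluripotency markers of the NanogBiD library summed to 381 FPKM, between 77.2 to 86.5 at D7 and 715 to 1180 at D10. The change of medium and the day cannot be told apart, and the parts of depth and of fibroblast RNA in the rise were not tested.

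**Figure D2:**
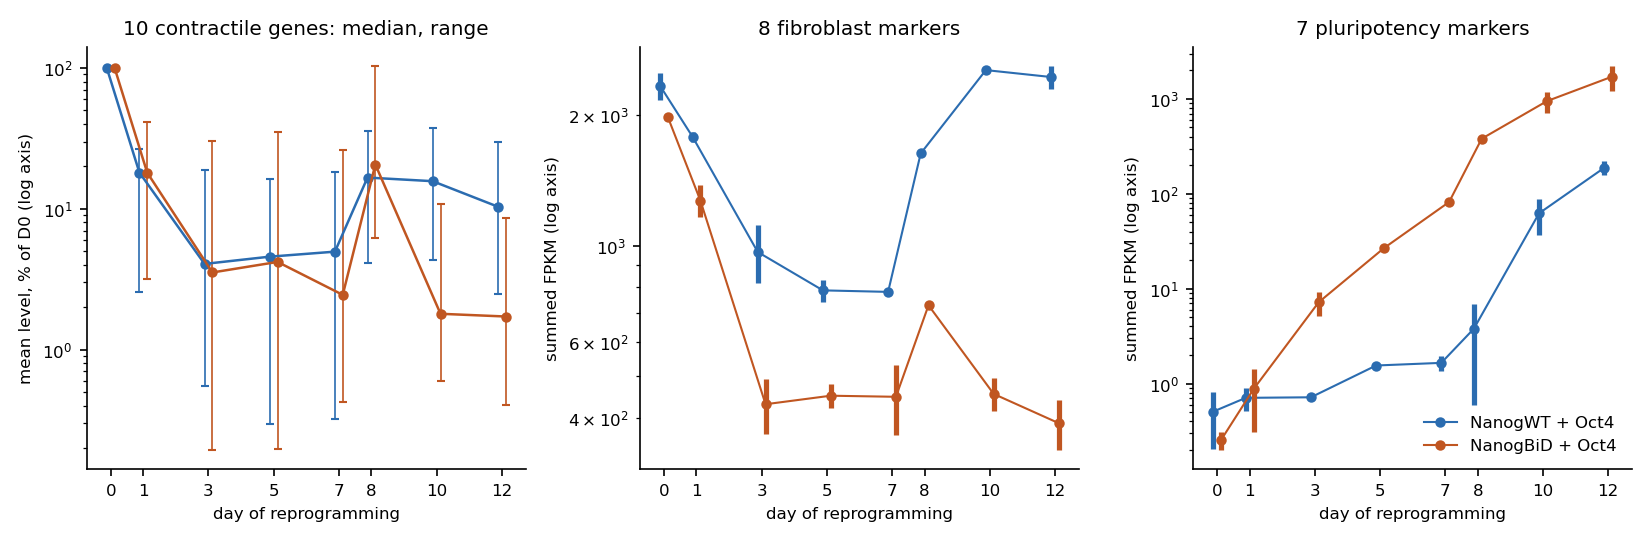
Left, the mean level of each of the 10 genes as a percent of its D0 mean in the same combination (log axis), with the median as a point and the lowest and highest gene as bars; middle and right, the summed FPKM (log axis) of 8 fibroblast and 7 pluripotency markers, bars spanning the libraries of a day. With NanogWT the members and the fibroblast sum rose at D8 and stayed above D7. With NanogBiD both rose at D8 in 1 library and were low again at D10 and D12. In that library, of the fibroblast markers only Col1a1 and Col1a2 were above both D7 libraries.

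After D8 the set fell far more with NanogBiD than with NanogWT in level relative to D0. The median member stood at 16.7% of its D0 level on D8 with NanogWT, then at 15.7% on D10 and at 10.3% on D12. With NanogBiD it stood at 20.6%, 1.79% and 1.72%. All 10 genes of the NanogBiD D8 library were above both D10 libraries, while with NanogWT this held for 4 of the 10.

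Within NanogWT, 4 members were called higher at D12 than at D7, where 6.66% of all genes were. They were Tagln with a log2 difference of 2.59 (SE 0.40, limma, adjusted p = 5.46e-05), Lmod1 with 1.90 (SE 0.22, adjusted p = 1.99e-06), Cnn1 with 1.18 (SE 0.35, adjusted p = 0.0171) and Acta2 with 1.12 (SE 0.32, adjusted p = 0.0136). The count was 2 without NanogWT D12 replicate 1 and also 2 without NanogWT D7 replicate 2. Lmod1 and Cnn1 were under 1 FPKM in both D7 libraries and entered the test through groups in which they were high, D12 among them. From D7 to D12, 5 of the 8 fibroblast markers were called higher and none lower, and their sum was 2306 and 2597 FPKM at D12.

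Within NanogBiD, 3 members were called lower at D12 than at D7, where 8.37% of all genes were. Actg2 fell from 9.08 and 5.15 to 1.33 and 1.52 FPKM, Tpm1 from 94.2 and 79.9 to 27.9 and 24.5, and Acta2 from 18.1 and 16.8 to 7.63 and 4.59. The log2 differences were -1.70 (SE 0.32, limma, adjusted p = 0.000228), -1.69 (SE 0.20, adjusted p = 1.13e-06) and -1.41 (SE 0.32, adjusted p = 0.00146). For Tpm1 this followed a log2 difference of -1.92 between D0 and D7 (SE 0.20, adjusted p = 2.5e-07). The fibroblast markers summed to 337 and 440 FPKM at D12, with 5 of 8 called lower than at D7.

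The combinations were compared day by day. At D0 the NanogBiD libraries were below the NanogWT libraries for Acta2, Myh11, Tpm2, Tagln, Cnn1, Cnn2 and Lmod1, but no member was called (0 of 10, where 0.76% of all genes were called), with 5 at an unadjusted p under 0.05, all of them lower with NanogBiD. Tagln had the lowest value, with a log2 difference of -1.16 (SE 0.40, limma, adjusted p = 0.149). The 2 NanogWT libraries of D0 stood apart, with Tagln at 1685 and 757 FPKM, and without replicate 2 3 members were called. At D1 no member was called (0 of 10, 0 at an unadjusted p under 0.05, where 1.33% of all genes were called), and 1 was called without NanogBiD D1 replicate 2.

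At D3 and at D5 Myl9 alone was called, lower with NanogBiD, where 2.45% and 3.28% of all genes were. Its log2 differences were -1.73 (SE 0.42, limma, adjusted p = 0.0113) and -1.29 (SE 0.42, adjusted p = 0.0428). The call of D3 was lost without NanogBiD D3 replicate 2 or NanogWT D3 replicate 2 and when the compared groups were fitted alone. That of D5 was lost without either NanogBiD library of the day and without NanogWT D5 replicate 2 (log2 difference -0.87). At D7, 3 members were called lower, where 4.65% of all genes were: Myl9 at -2.19 (SE 0.42, adjusted p = 0.000581), Actg2 at -1.38 (SE 0.32, adjusted p = 0.00286) and Cnn2 at -1.14 (SE 0.35, adjusted p = 0.0182). Without NanogBiD D7 replicate 2 the count was 1. Depth at D3 to D7 was alike in both combinations. Acta2 at D7 did not separate them, at 18.1 and 16.8 FPKM against 16.8 and 18.4 (log2 difference -0.01, SE 0.32).

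**Figure D3:**
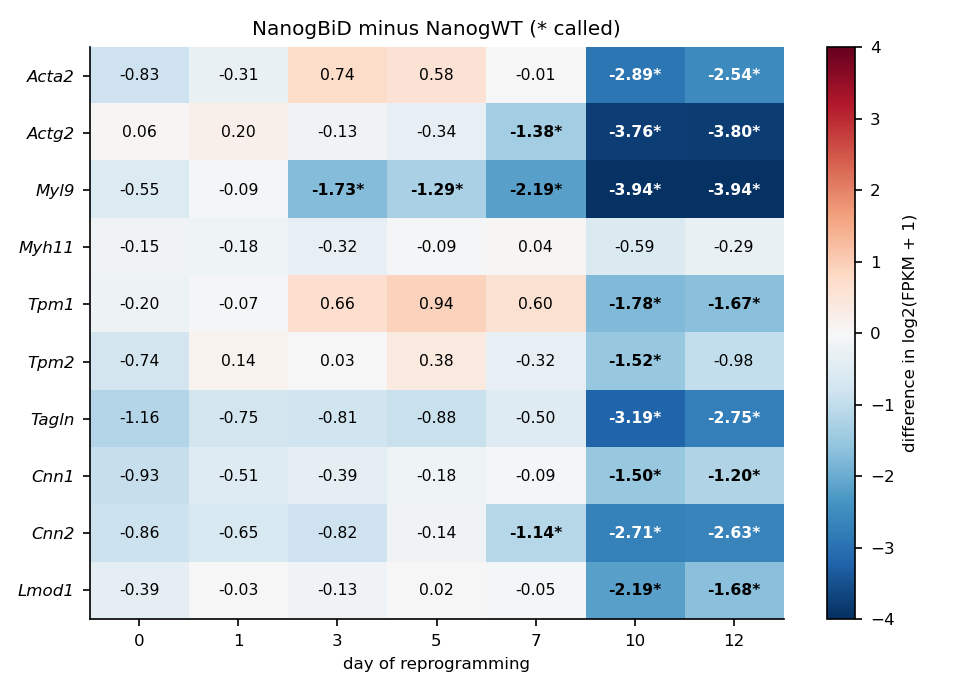
Difference in log2(FPKM + 1) between NanogBiD and NanogWT for each gene (rows) and day (columns), blue where NanogBiD was lower and red where it was higher, with an asterisk where the gene was called. Calls are few up to D7, led by Myl9, and cover 9 genes at D10 and 8 at D12, while Tpm1 turns from higher to lower.

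At D10, 9 of 10 members were called lower with NanogBiD, where 12.3% of all genes were, and at D12 8 of 10, where 9.97% were. At D12 Actg2 stood at 1.33 and 1.52 FPKM with NanogBiD and 39.1 and 27.3 with NanogWT, with a log2 difference of -3.80 (SE 0.32, limma, adjusted p = 1.18e-08). Myl9 stood at 3.40 and 3.36 against 86.9 and 50.5 (-3.94, SE 0.42, adjusted p = 2.65e-07), and Acta2 at 7.63 and 4.59 against 44.0 and 35.4 (-2.54, SE 0.32, adjusted p = 2.22e-06). These groups did not overlap.

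Tagln at D12 stood at 10.4 and 6.55 FPKM with NanogBiD against 79.4 and 47.5 with NanogWT, and Cnn2 at 35.8 and 28.7 against 266 and 157. Their log2 differences were -2.75 (SE 0.40, limma, adjusted p = 1.14e-05) and -2.63 (SE 0.35, adjusted p = 3.47e-06). Lmod1, Tpm1 and Cnn1 were called as well, at -1.68, -1.67 and -1.20. The Cnn1 difference was -1.07 without NanogBiD D12 replicate 1 and -0.97, under the fold limit, without NanogWT D12 replicate 1. Lmod1 and Cnn1 entered the test through groups in which they were high, NanogWT D12 among them. Tpm2 was at -0.98 (adjusted p = 0.0219), just under the fold limit, and Myh11 at -0.29 (adjusted p = 0.0586). At D10 Tpm2 was called and Myh11, at -0.59 (adjusted p = 0.000455), was under the fold limit. The fibroblast markers went the same way, with 7 of 8 called lower with NanogBiD at D12, and the NanogWT libraries of these days were the deeper ones. The part of either in the result was not tested.

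Whether the change over time itself differed was asked with an interaction, the change with NanogBiD minus that with NanogWT. From D0 to D7, 1 member was called, Actg2 at -1.43 (SE 0.45, limma, adjusted p = 0.0363), where 4.88% of all genes were called lower. That call was lost without NanogBiD D0 replicate 1, NanogBiD D7 replicate 2 or either NanogWT D7 library. It was also lost without NanogWT D0 replicate 2 (log2 difference -0.99). From D0 to D12, 7 members were called lower, where 10.5% of all genes were, from Lmod1 at -1.30 to Actg2 at -3.85 and Myl9 at -3.39. Without NanogWT D12 replicate 1 the count was 4. From D7 to D12, 7 were called lower, where 7.33% of all genes were, among them Acta2 at -2.53, Actg2 at -2.42, Tpm1 at -2.27 and Tagln at -2.25. The Myl9 and Cnn2 calls of this interval, and the Tagln call from D0 to D12, were lost without the filter. These calls were also lost when any of several single libraries was left out. Without NanogWT D12 replicate 1 the differences from D7 to D12 were -1.37 for Myl9 and -1.12 for Cnn2. Lmod1, called in both intervals ending at D12, entered the test through groups in which it was high, NanogWT D12 among them.

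Against MEF, both combinations had all 10 members called lower at D7 (7.56% of all genes with NanogWT and 7.02% with NanogBiD) and at D12 (4.37% and 8.73%). The NanogWT count at D12 was 9 without its replicate 2. The mES library listed Acta2 at 0, Actg2 at 0.105 FPKM and Tagln at 0.174, and its highest members were Tpm1 at 8.33 and Cnn2 at 7.23. The NanogBiD libraries of D12 were still above the mES library for 9 of the 10 genes when their means were compared, the exception being Cnn1 at a mean of 0.218 against 0.229 FPKM.

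The wider apparatus moved less uniformly than the 10 genes. Of 46 other genes of contraction, adhesion and the smooth muscle cytoskeleton, 44 were tested. From D0 to D7, 2 were called higher and 23 lower with NanogWT, and 1 higher and 27 lower with NanogBiD, with median log2 differences of -1.17 and -1.36. Among all genes 12% were called higher and 5.69% lower with NanogWT, and 12.7% and 6.15% with NanogBiD. At D12 2 were higher with NanogBiD than with NanogWT and 18 lower, where 13.5% and 9.97% of all genes were. Cald1, the actin-binding caldesmon, fell from a mean of 328 FPKM at D0 to 45.5 at D7 with NanogWT and from 391 to 38.6 with NanogBiD.

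Other genes of that list took courses of their own. Cav1, the main protein of caveolae, was at a mean of 195 FPKM at D0 and still 123 at D7 with NanogWT, but fell from 233 to 34.3 with NanogBiD and stood at 80.3 against 3.69 at D12 (log2 difference -4.14, SE 0.19, limma, adjusted p = 3.33e-12). Itga8, an integrin subunit of smooth muscle and mesenchyme, stood at 19.0 against 1.21 FPKM at D12, and Tgfb1i1, a focal adhesion protein, at 19.1 against 2.39. Tagln3, a transgelin of neurons, went the other way from Tagln and rose from 0.231 to 34.1 FPKM with NanogWT and from 0.343 to 57.3 with NanogBiD between D0 and D12. Zyx, the focal adhesion protein zyxin, was at 49.3 FPKM at D7 and 118 at D12 with NanogWT, and at 40.4 and 15.9 with NanogBiD. The other genes that the naming rule selected, the integrin subunit Itga1, the adhesion proteins Vcl and Lpp and the LIM protein Fhl2, were lower with NanogBiD at D12 as well, with log2 differences of -3.19, -2.08, -2.07 and -1.64.

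The regulators of these genes were called in both directions. Of 21 listed, 20 were tested, and from D0 to D12 3 were called higher and 2 lower with NanogWT and 6 higher and 7 lower with NanogBiD. Among all genes, 12.2% were called higher and 3.95% lower with NanogWT, and 24.6% and 10.2% with NanogBiD, so the share of regulators called higher was near that of all genes. Myocd, the coactivator of Srf in smooth muscle, was at means of 0.940 and 0.582 FPKM at D0 with NanogWT and NanogBiD, 1.73 and 4.32 at D5, and 3.85 and 5.06 at D7. It was called higher at D7 than at D0 with both combinations, by 1.32 (SE 0.19, limma, adjusted p = 9.49e-06) and 1.94 (SE 0.19, adjusted p = 7.06e-08) on the log2 scale, over the days when every member was called lower. At D12 its mean was 4.11 FPKM with NanogWT and 0.538 with NanogBiD, a log2 difference of -1.73 (SE 0.19, adjusted p = 2.54e-07), and mES listed it at 0.0165.

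Srf itself, which the rule for named genes did not select, was at a mean of 21.4 FPKM at D0 with NanogWT and 7.64 at D7, and at 19.6 and 9.35 with NanogBiD. At D12 the combinations stood at 13.3 and 10.5 FPKM (log2 difference -0.29, SE 0.19, limma, adjusted p = 0.213). Prrx1, a mesenchymal homeobox factor, fell from 69.7 to 12.5 FPKM between D0 and D12 with NanogWT and from 66.7 to 1.43 with NanogBiD. Elk3, a ternary complex partner of Srf, was at 33.2 FPKM at D0 and 73.0 at D1 with NanogWT, and stood at 12.5 at D12 against 2.93 with NanogBiD. Notch3, a receptor typical of mural cells, was called higher at D12 than at D0 with both, at 29.2 against 5.85 FPKM with NanogWT and 19.4 against 8.43 with NanogBiD. Klf5, a factor shared by smooth muscle precursors and pluripotent cells, stood at 10.9 FPKM at D12 with NanogWT and 29.3 with NanogBiD, against 77.3 in mES. Of the other regulators that the rule selected, Jag1, a Notch ligand, and Tead3 were called lower with NanogBiD than with NanogWT at D12, at -1.28 and -1.71 on the log2 scale. Mrtfa, Wwtr1 and Tead2 were at -0.94, -0.71 and 0.79. From D0 to D12 with NanogBiD, Tead2 was called higher (1.48) and Mrtfa (-1.60) and Wwtr1 (-1.42) were called lower.

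Likeness of course was read as the Pearson correlation over the 31 time-course libraries with the mean of the members, each scaled to mean 0 and SD 1. The libraries share days and combinations, and the values are descriptions. Of the members, Acta2 followed the mean of the other 9 most closely (r = 0.972) and Tpm1 least (0.867). Outside all lists the closest genes were Tgfb3, a TGF-beta ligand (0.967), Pcsk7, a proprotein convertase (0.964), Ckap4 (0.955), Fam114a1 (0.941) and Dnajb4 (0.940). Pcsk7 is the gene that overlaps Tagln on the other strand, and its value is uncertain for that reason. Tgfb3 was at a mean of 91.5 FPKM in MEF, 49.5 at D0 and 5.78 at D3 with NanogWT, 39.9 and 3.79 with NanogBiD, and 0.0814 in mES.

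In established iPSC the set was low. In the transcript table, summed by gene, all 10 members were called lower in iPSC than in MEF, where 18.8% of 13312 genes were, with a median log2 difference of -5.15 and a range from -7.88 for Acta2 (SE 1.46, limma, adjusted p = 0.000348) to -2.63 for Myh11 (SE 0.29, adjusted p = 3.74e-06). Acta2 was at 1094 and 1693 FPKM in MEF, at 0 to 92 with a median of 2.46 in the 6 NanogWT iPSC, and at 0 to 255 with a median of 10.2 in the 6 NanogBiD iPSC. The mES library listed it at 0.

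The iPSC libraries were not alike. Summed over the members, sample 9 of NanogBiD iPSC1 stood at 18.5% of MEF and sample 3 of NanogWT iPSC1 at 7.28%, while the other 10 stood between 0.426% and 2.99%. The same libraries led in the fibroblast markers, at 22.8% and 8.63% of MEF, where the other 10 were at 2.25% to 4.66%. The mES library itself was at 3.04% by this sum. In NanogWT iPSC2 sample 6, Fn1 alone gave 226 of the 227 FPKM summed. Sample 9 also had the lowest sum of pluripotency markers, 1740 FPKM against 2580 to 5014 in the other 11 iPSC libraries. The part of remaining fibroblast RNA in these values was not tested.

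Passage, as the column names give it, went with the level. The 5 libraries of passage 5, all iPSC1, had Acta2 at 20.3 to 255 FPKM, and the 2 iPSC1 libraries of passage 6 had it at 0 and 0.117. The 5 iPSC2 libraries, all of passage 2, had it at 0 to 4.80 FPKM. Tpm1 and Cnn2 differed from the rest in that they stayed well above 0 in every library, Tpm1 at 14.1 to 204 FPKM and Cnn2 at 2.16 to 67.6, against 24.2 and 6.62 in mES. For Tpm1 these summed values stood above the gene-level ones, at 1112 and 1409 against 421 and 509 FPKM in MEF. In mES they were 24.2 against 8.33, so iPSC levels of Tpm1 cannot be set against the time course. The groups iPSC1 and iPSC2 share no passage number, so the line cannot be told apart from the passage.

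**Figure D4:**
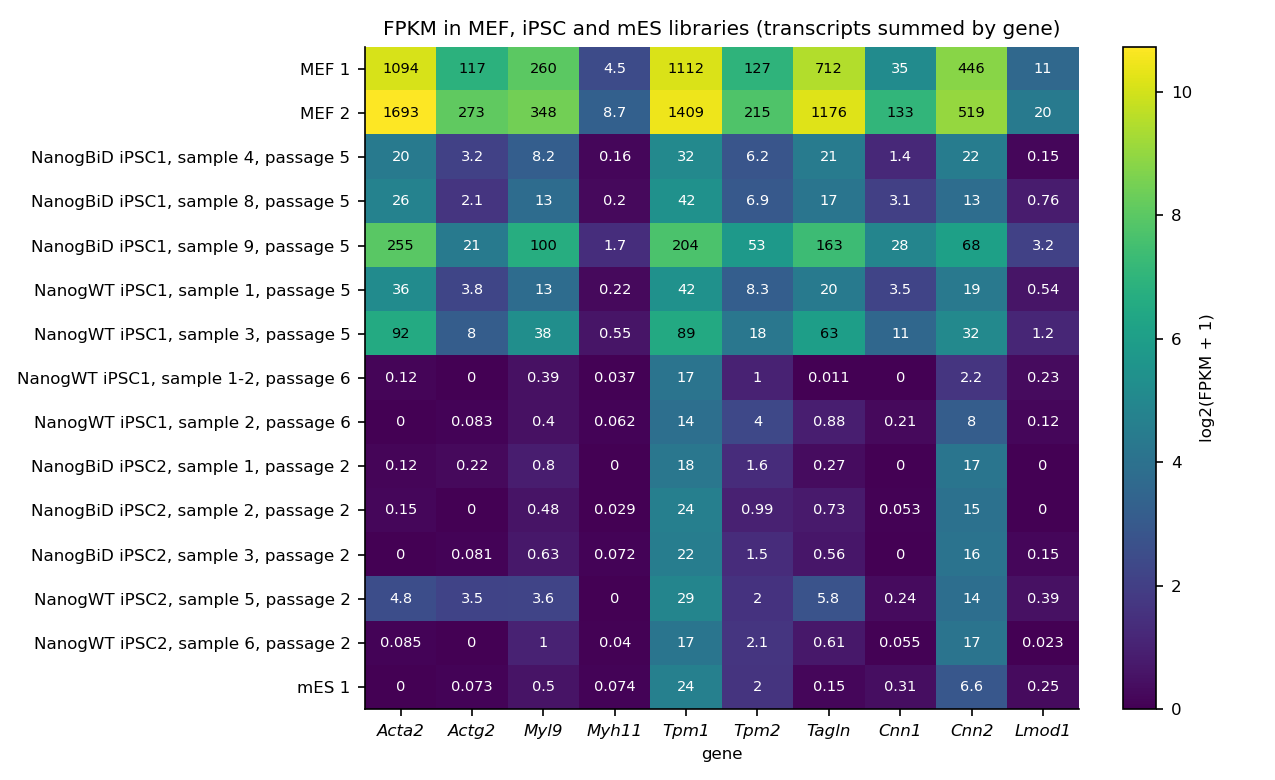
FPKM of the 10 genes (columns, numbers in the cells) in MEF, 12 iPSC and mES libraries (rows, ordered by group and passage), coloured by log2(FPKM + 1). The passage 5 libraries of iPSC1, above all NanogBiD sample 9, stand between MEF and the other iPSC libraries, which are near mES.

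Neither split of the iPSC gave a call. Between the combinations, with line as a covariate, 0 of the 9 members tested were called and 0 had an unadjusted p under 0.05, and 0% of 12456 genes were called. Acta2 had a log2 difference of 1.12 with an SE of 1.24 (limma, adjusted p = 0.999), an error larger than the difference. Between iPSC2 and iPSC1, with combination as a covariate, 0 of 9 were called where 0.883% of all genes were, and 5 had an unadjusted p under 0.05. The median log2 difference was -1.91, and Tpm2 had the lowest adjusted p of 0.0863. Without NanogWT iPSC1 sample 1-2 or sample 2, the passage 6 libraries, 1 member was called. Myh11 was below the filter in this fit. With samples 1 and 1-2 of NanogWT iPSC1 averaged as 1 sample, 0 members were called in either split, and all 10 were still called lower in iPSC than in MEF.

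What was left of Tpm1 in mES came mostly from other transcripts than those of MEF. Of its 28 transcripts in the table, NM_024427, which codes for 284 residues, made up 77.5% and 70.4% of the summed Tpm1 FPKM in MEF, at 862 and 991 FPKM, but 2.38% in mES, at 0.576 FPKM. NM_001164252 and NM_001164253, which code for shorter proteins of 248 residues, made up 1.80% and 0.468% together in MEF and 75.1% in mES. NM_001164252 was at 11.8 and 3.69 FPKM in MEF and at 8.36 in mES, within the MEF range, and NM_001164253 at 8.23 and 2.91 in MEF and at 9.78 in mES. The level of the short pair was thus of the same order in both cell types, while the long form was lost.

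Among iPSC libraries the share of NM_024427 followed the level of the set. It was 74.9% in NanogBiD iPSC1 sample 9 and 60.8% in NanogWT iPSC1 sample 3, 15.95% to 40.6% in the other passage 5 libraries, and 4.00% to 14.7% in passages 6 and 2. The share of the short pair was 7.31% and 5.79% in samples 9 and 3, and reached 74.4% in NanogWT iPSC1 sample 2. Shares of transcripts that overlap in sequence are estimates of the assembler and carry no error here. Across the 15 libraries, then, the long form was high where Acta2 was high, and the short pair made up most of Tpm1 where Acta2 was near 0.

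**Figure D5:**
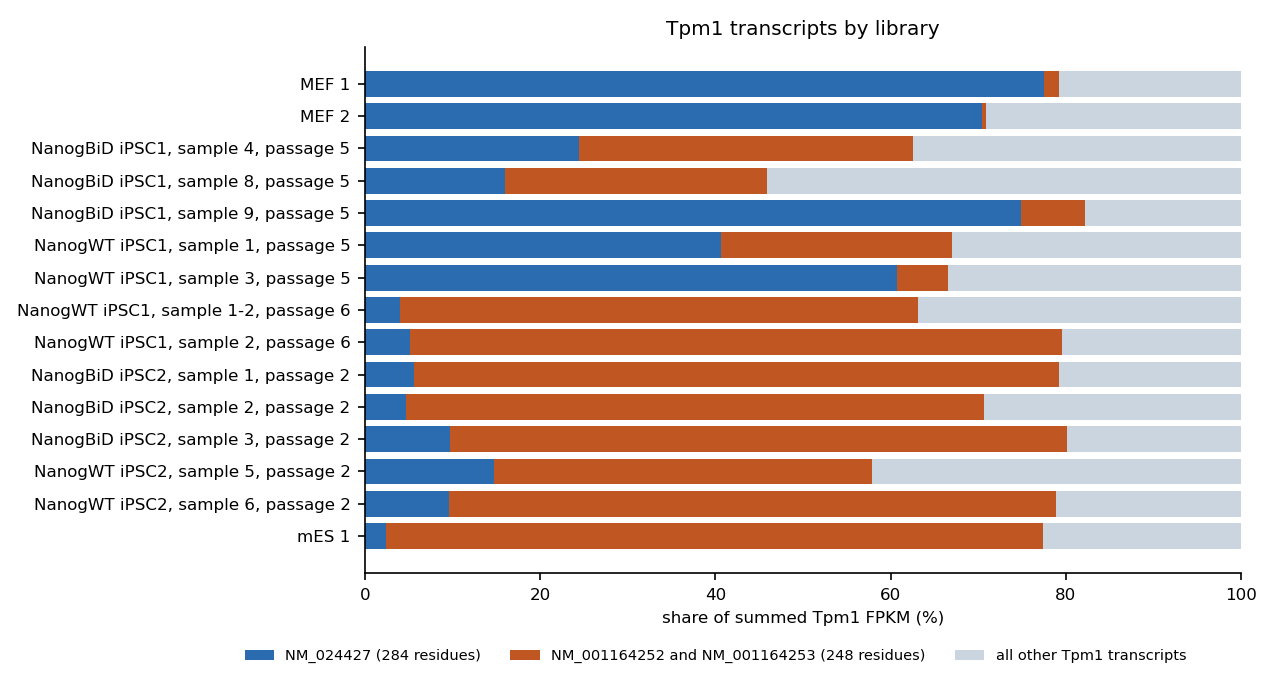
Share (%) of the summed Tpm1 FPKM taken by the long transcript NM_024427 (blue), the short pair NM_001164252 and NM_001164253 (orange) and all other Tpm1 transcripts (grey), a bar per library. The long form has a larger share than the short pair in MEF and in samples 9, 3 and NanogWT 1 of iPSC1, and a smaller one in mES, in samples 4 and 8 of iPSC1, in iPSC1 of passage 6 and in iPSC2.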

How the data were processed

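RNA-seq of 46 mouse samples was deposited as FPKM per gene and per transcript. Per the submitters' notes and the study's methods, the authors trimmed reads with Trim Galore 0.6.4, mapped them to mm10 with HISAT2 2.2.1 and estimated FPKM with StringTie 2.2.1. The annotation and the use of strand are not given in the sources used here, and the labels and the methods name different library kits. The authors' own differential expression (GFOLD) was not used, and FPKM cannot enter a count model. Transcripts were summed by gene symbol, and tests were made within each table only.

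Values were analysed as log2(FPKM + 1) with limma 3.58.1 in R 4.3.3 (eBayes with trend, two-sided, Benjamini-Hochberg over all genes tested), on genes that reached 1 FPKM in 2 or more libraries. The 16 time-course groups shared 1 estimate of the spread, and MEF was added for its own contrasts. Python 3.11.15, numpy 2.4.6, pandas 2.3.3 and matplotlib 3.10.9 were used for the rest. The scripts were tested on simulated data. All members are named in each contrast. Of the regulator and contractile lists, genes called at D5, D7 or D12 between the combinations or between D12 and D0 are named, up to 10 a list by size, and Srf was named outside that rule. The members and lists were chosen with earlier results of these data known. The alternatives were another pseudocount (0.1), no filter, no fold limit, quantile normalization, a common total, the compared groups alone, a replicate block, and each library left out.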

Additional observations from a re-analysis of the deposited data

Results flagged for a closer look

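In iPSC, values that stood apart from the other samples of their group by Dixon's test were found in 9 of 40 combinations of gene and group. Chance flags about 1 in 20 of independent tests. These were not independent, because the genes moved together and the groups shared libraries, so 9 of 40 cannot be set against that rate. NanogBiD iPSC1 sample 9 stood apart for Myh11 (1.665 FPKM, within NanogBiD iPSC and within iPSC1), Tpm1 (203.9) and Cnn2 (67.61) within NanogBiD iPSC. NanogWT iPSC2 sample 5 stood apart within iPSC2 for Acta2 (4.798 FPKM), Actg2 (3.497), Myl9 (3.588), Tagln (5.756) and Cnn1 (0.2432). The sum of its fibroblast markers, 2.44% of MEF, was within the range of the other iPSC libraries, but the median of these markers, 0.445% of MEF, was above the 0.00847% to 0.0235% of the other 4 iPSC2 libraries.

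The change over time differed between the combinations by the interaction in limma, given as the log2 change with NanogBiD minus that with NanogWT. From D0 to D7 this held for Actg2 (-1.43). From D0 to D12 it held for Actg2 (-3.85), Myl9 (-3.39), Cnn2 (-1.77), Acta2 (-1.71), Tagln (-1.59), Tpm1 (-1.48) and Lmod1 (-1.30). From D7 to D12 it held for Acta2 (-2.53), Actg2 (-2.42), Tpm1 (-2.27), Tagln (-2.25), Myl9 (-1.76), Lmod1 (-1.63) and Cnn2 (-1.50). Actg2 from D0 to D7, Tagln from D0 to D12, and Myl9 and Cnn2 from D7 to D12 lost their calls without the filter. The same calls were also lost when any of several single libraries was left out. The intervals share libraries, and those ending at D12 include the deeper NanogWT libraries.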

How the results depend on the processing

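No single member called in the main fit or in an alternative reversed direction. Of 2839 alternatives of single members, 2736 kept direction and side of the threshold, 58 lost the call and 45 gained it. Counts of members called have no direction, and some of them moved. The interaction from D0 to D7 (1 member) had 0 with the compared groups alone, 0 without the filter, 2 after quantile normalization and 2 on a common total. NanogBiD against NanogWT at D3 (1) had 0 with the compared groups alone, 2 without the fold limit and 2 with a pseudocount of 0.1, and at D5 (1) had 0 without the filter and 2 without the fold limit. D0 against MEF (1 each) had 3 without the fold limit with NanogWT and 2 with NanogBiD. With each library left out in turn, the counts ranged from 0 to 3 for NanogBiD against NanogWT at D0, 0 to 1 at D1, 0 to 2 at D3, 0 to 1 at D5, 1 to 3 at D7, 0 to 2 for the interaction to D7, 4 to 7 for that from D0 to D12, 2 to 5 for NanogWT D12 against D7, 0 to 3 for NanogWT D0 and 0 to 2 for NanogBiD D0 against MEF, 0 to 1 between the iPSC groups, 8 to 10 for NanogBiD D1 against D0, and 9 to 10 for NanogWT D10 against D0 and D12 against MEF. Replicate numbers did not pair the libraries (correlation of same-numbered deviations -0.06 to 0.39 over 7 days), and a fit with a replicate block left the count of members called the same in all 31 contrasts. Quantile normalization moved the median of all genes by -0.36 to 0.02 and a common total by -0.19 to 0.17. The share of higher calls among all genes moved by over 10 points in 17 of 34 contrasts after quantile normalization, as from 70.7% to 50.2% for NanogBiD D12 against D0, and in 1 on a common total. With 2 libraries a group, and 1 for NanogBiD at D8, levels under 1 FPKM rest on few fragments, and depth from D8 on went with the combination.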
